A study of Mus musculus with 10 samples.

Results

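Small RNA was sequenced from 4 cultures of mouse adipocyte precursors (APs) harvested after 2 days, 2 control cultures and 2 cultures given interleukin-4 (IL-4), and these 4 libraries of the 10 in the series were chosen by their small RNA label. The other 6 libraries hold mRNA of the same kind of culture and were not compared here. The APs came from the subcutaneous white fat of C57BL/6J mice, where cells free of CD45 and CD31 were kept and SCA-1-positive cells were then selected on magnetic columns, and all cultures were grown in DMEM F12 with fetal bovine serum. Control and IL-4–treated APs carry no genetic change in the labels and differed by IL-4 in the medium, whose dose is not given in the sources used here. The study calls the cultures of a group biological replicates without saying whether they came from separate animals, so the p-values measure the spread between 2 cultures, some of which may be technical. APs are a mixed primary population selected by surface proteins, and in such bulk RNA, fewer cells of a type and less RNA per cell cannot be told apart.

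MicroRNAs (miRNAs) are cut from hairpin precursors by the nucleases Drosha and Dicer. One arm of the hairpin, called 5p or 3p after its position, is usually retained by an Argonaute protein, which it guides to mRNAs that pair with its seed, the stretch from base 2 to base 8. miRNAs with one seed therefore address overlapping sets of mRNAs, and miRNAs from one transcript, such as those of the H19X locus on the X chromosome, can be made together.

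The sequences below are those on which the comparison turns, taken from RefSeq on GRCm38.p6 and identical to the deposited ones, with the seed in capitals. The first set shares a seed, although miR-351-5p (chrX:53053315-53053338, minus strand) comes from the H19X locus and miR-125a-5p (chr17:17830817-17830840, plus strand) from an exon of Spaca6 on chromosome 17.
miR-351-5p: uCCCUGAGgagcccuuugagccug
miR-125a-5p: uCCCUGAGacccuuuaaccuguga
miR-125b-5p: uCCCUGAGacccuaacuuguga

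miR-322-5p (chrX:53054306-53054327, minus strand) has the seed of miR-16-5p and miR-15a-5p, cell cycle regulators that are made elsewhere in the genome. miR-503-5p (chrX:53054027-53054049, minus strand) has a seed that no other listed miRNA carries.
miR-322-5p: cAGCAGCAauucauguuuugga
miR-16-5p: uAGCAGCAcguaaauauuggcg
miR-15a-5p: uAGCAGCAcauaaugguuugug
miR-503-5p: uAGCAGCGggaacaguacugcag

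The remaining major arms of the H19X locus each had a seed that no other listed miRNA shared.
miR-450a-5p: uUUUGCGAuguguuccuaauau
miR-450b-5p: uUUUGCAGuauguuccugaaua
miR-542-3p: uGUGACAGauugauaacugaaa

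Further sequences from outside the locus are shown for the results on other loci and on lower miRNAs. miR-1298-5p lies in an intron of Htr2c (chrX:147064918-147064939, plus strand), miR-455-5p in an intron of Col27a1 (chr4:63256867-63256888, plus strand), and miR-31-5p at chr4:88910614-88910635 on the minus strand. miR-92b-3p shares its seed with miR-92a-3p and miR-25-3p.
miR-1298-5p: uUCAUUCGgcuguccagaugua
miR-455-5p: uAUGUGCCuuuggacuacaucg
miR-31-5p: aGGCAAGAugcuggcauagcug
miR-92b-3p: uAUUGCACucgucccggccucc
miR-92a-3p: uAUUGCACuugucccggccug
miR-25-3p: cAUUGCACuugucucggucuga

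Reads of mature miRNAs numbered 23790821 and 32004058 for control APs and 27971661 and 32061504 for IL-4–treated APs. Of 1486 listed mature miRNAs, 640 passed the filter on low counts. All values below are normalized counts unless they are called reads. For mature miRNAs these are reads scaled to an effective library size of 29128594. Hairpins and seed families were each scaled to the mean effective library size of their own counts, so their values are not on the scale of the mature ones. Of the 8 miRNAs listed for mesenchymal cells, miR-143-3p had 2453005 to 5190105 reads per library, miR-199a-3p 535874 to 844019 and miR-214-3p 29273 to 52004. miR-21a-5p, on the same list but found in many cell types, had 3362614 to 4438575. The rest of the list ranged from 12277 reads of miR-152-3p to 265832 of miR-199a-5p. Defining miRNAs of blood cells were near 0: miR-142a-3p had 1 and 0 reads in control and 2 and 1 in IL-4–treated APs, miR-223-3p had at most 3 reads, and the 5 listed of 7 haematopoietic markers summed to 22 to 37 reads per library. The 2 endothelial markers, miR-126a-3p and miR-126a-5p, summed to 4193 and 6685 reads in control and 4296 and 7283 in IL-4–treated APs. The erythroid list summed to 54925 to 91085 reads, nearly all of them miR-486a-5p, with 40 to 83 reads of miR-451a. The lists for muscle (157 to 313 reads), epithelium (44 to 80), neurons (2119 to 3814), hepatocytes (at most 5) and embryonic stem cells (at most 2) held fewer reads. No marker miRNA of another cell type was called. Libraries with the same number resembled each other in their most abundant miRNAs: miR-10a-5p took 20.7% and 19.8% of reads in control 1 and IL-4 1, against 12.7% and 11.5% in control 2 and IL-4 2.

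IL-4–treated APs contained more of 29 mature miRNAs (4.53% of those tested) and less of 10 (1.56%), calling a miRNA when its fold change passed 1.5 and its unadjusted p fell under 0.05 in the quasi-likelihood test of edgeR. After Benjamini-Hochberg adjustment over the 640 miRNAs, edgeR left 0 of them under 0.05, compared with 39 (6.09%) before adjustment, while DESeq2 left 12. In this fit the share of 6.09% is close to the threshold of 0.05 itself, so an unadjusted call of a single miRNA is weak evidence of a difference. The share depends on the fit: with a term for the replicate number, 105 of the 640 had an unadjusted p under 0.05 in the edgeR test. The labels do not say that this number marks a shared batch. Of the 29, 12 came from the H19X locus and 17 from elsewhere. The words higher and lower refer to the unadjusted call throughout. In 38 of the 39, both IL-4 libraries lay on one side of both controls, which 18.4% of all tested miRNAs did upward and 16.1% downward. The call was made on these same libraries and favours such a separation, so the 38 are no further evidence.

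**Figure D1:**
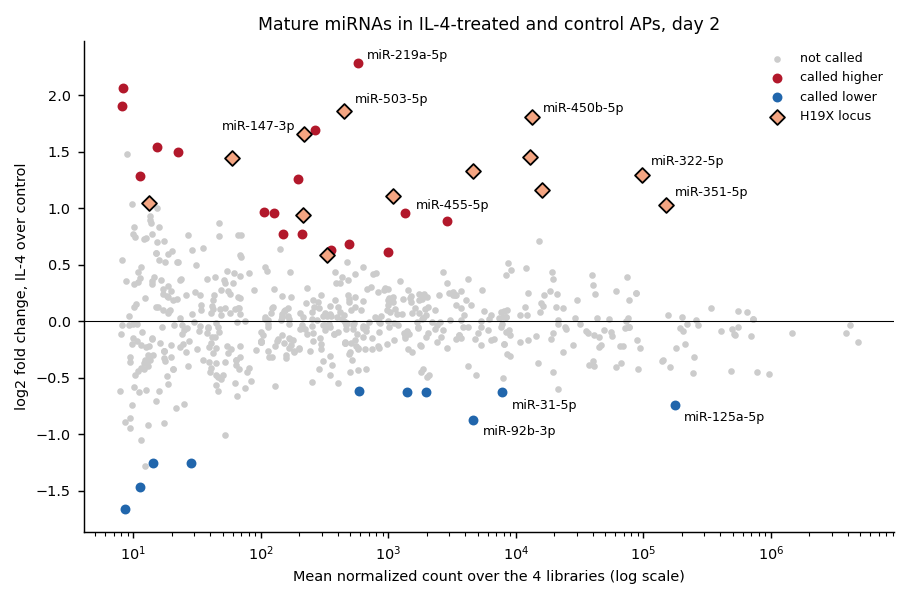
Each point is 1 of 640 tested mature miRNAs, with its mean normalized count over the 4 libraries on a log axis and its fitted log2 fold change (IL-4 over control). The 13 miRNAs of the H19X locus (diamonds) lie between 0.59 and 1.86, and miR-351-5p and miR-125a-5p, which share a seed, lie on opposite sides of 0.

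The largest group of higher miRNAs came from the H19X locus, whose 7 hairpins lie within 6353 bases (chrX:53047997-53054349, minus strand). The study chose this locus on these samples, so its direction is not independent evidence. All 13 of its mature miRNAs were tested and 12 were higher, with a median log2 fold change of 1.30 against -0.02 over all 640. Together they made up 0.692% and 0.503% of mature reads in control and 1.497% and 1.405% in IL-4–treated APs. miR-351-5p moved from rank 36 and 38 by reads in the controls to rank 24 and 25, and miR-450b-5p from 124 and 140 to 80 and 91.

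The major arms of the locus were all called. miR-351-5p, with the seed of the miR-125 family, was at 108520 and 88342 in control and 199301 and 201097 in IL-4–treated APs (2.03-fold, log2 1.02 ± 0.20 SE, quasi-likelihood test of edgeR, unadjusted p = 0.0015). miR-322-5p, which has the seed of miR-16-5p, was at 73949 and 37655 in control and 167104 and 107301 in IL-4–treated APs (2.46-fold, log2 1.30 ± 0.37 SE, quasi-likelihood test of edgeR, unadjusted p = 0.00985). Its controls differed from each other by more than those of miR-351-5p, and its fold change ranged from 1.88 to 3.67 with each library left out in turn.

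miR-450b-5p was at 7090 and 4731 in control and 25130 and 16192 in IL-4–treated APs (log2 1.81 ± 0.31 SE, quasi-likelihood test of edgeR, unadjusted p = 0.000677). miR-542-3p was at 7335 and 6446 in control and 21817 and 15855 in IL-4–treated APs. miR-450a-5p was at 2825 and 2394 in control and 7497 and 5594 in IL-4–treated APs, and its reads cannot be divided between its identical copies in mir-450a-1 and mir-450a-2. Neither group overlapped the other for these 3, which were higher by 3.50-fold, 2.73-fold and 2.51-fold.

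All minor arms of the hairpins but miR-450a-2-3p were higher as well. miR-322-3p was at 9833 and 9790 in control and 23171 and 20734 in IL-4–treated APs, and miR-351-3p at 112.7 and 96.5 in control and 350.3 and 306.7 in IL-4–treated APs. In mir-503, as in mir-542, the 3p arm had more reads than the 5p arm, with miR-503-3p at 632.9 and 731.0 in control and 1219 and 1729 in IL-4–treated APs and miR-503-5p at 233.2 and 157.5 in control and 760.4 and 657.0 in IL-4–treated APs. miR-503-5p had the largest fold change of the locus (3.64-fold, log2 1.86 ± 0.27 SE) and miR-542-5p the smallest called (1.51-fold), whose call was lost without control 1 (1.47-fold), control 2 (1.61-fold) or IL-4 2 (1.33-fold). miR-450a-2-3p was the only one of the 13 that was not called, with 11 and 4 reads in control and 21 and 16 in IL-4–treated APs.

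**Figure D2:**
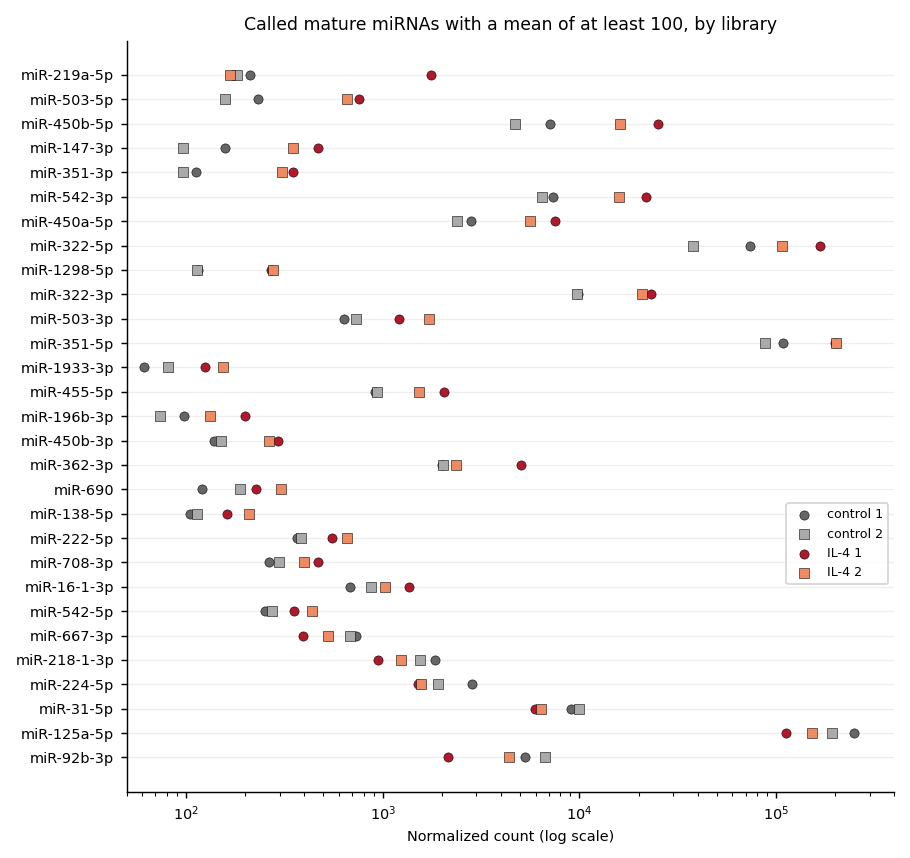
Normalized counts on a log axis of the 29 called mature miRNAs with a mean of at least 100, one point per library, ordered by fitted fold change. The groups do not overlap except for miR-219a-5p, whose value rests on IL-4 1.

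Counting whole hairpins joins both arms, and the biological coefficient of variation was 0.210 for precursors and 0.227 for mature miRNAs. Of 508 precursors tested, 22 were higher (4.33%) and 7 lower (1.38%), out of 36 (7.09%) with an unadjusted p under 0.05. After Benjamini-Hochberg adjustment of the edgeR p-values, 8 of the higher ones (1.57%) remained under 0.05. Those 8 were mir-503, mir-542, mir-450a-1, mir-450a-2, mir-450b and mir-351 of the H19X locus, mir-147 and mir-1298. A read is counted at each precursor it matches, so mir-450a-1 (2231 and 2587 reads in control) and mir-450a-2 (2215 and 2556) are not separate observations. The same holds for mir-138-1 and mir-138-2 among the 22, with 82 and 121 reads each in control. The adjusted p was 0.0132 for mir-450b and 0.0272 for mir-351 in that test, while mir-322, the seventh hairpin of the locus, had 0.0701. With upper-quartile scaling or library totals, 0 precursors passed the adjusted p by edgeR, against 32 and 38 at an unadjusted p under 0.05.

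The higher hairpins included other X-linked ones. On the X chromosome, 11 of 40 tested hairpins were higher and 0 lower, 7 of them from the H19X locus, and on the autosomes 11 of 372 were higher and 6 lower. Without the H19X locus, the median log2 fold change of the X-linked hairpins was 0.16, against 0.05 on the autosomes. Hairpins of one transcript are not independent of each other, and the difference between chromosomes was not tested.

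Introns of Htr2c, the gene of a serotonin receptor, hold 5 of these hairpins (chrX:147002259-147158321, plus strand). mir-1298 was at 118.5 and 120.4 in control and 281.6 and 307.5 in IL-4–treated APs (2.46-fold, log2 1.30 ± 0.24 SE, quasi-likelihood test of edgeR, unadjusted p = 0.000365). mir-448 had 10 and 14 reads in control and 27 and 50 in IL-4–treated APs (2.79-fold), and mir-1264 had 4 and 2 reads in control and 14 and 14 in IL-4–treated APs (4.01-fold, 2.53 to 6.72 with each library left out). mir-1912 was not called, with 9 and 7 reads in control and 20 and 15 in IL-4–treated APs, and mir-764 had too few reads to be tested. All 4 tested hairpins were thus above both controls in both IL-4 libraries, as were 91 of all 508 tested precursors (17.9%). The 4 share a host gene and are not independent of each other, and 3 of them rest on 50 reads or fewer per library.

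Hairpins in introns of Clcn5, which encodes a chloride transporter (chrX:7237683-7248497, minus strand), differed less between the groups. mir-362 was higher, at 3200 and 2694 in control and 6365 and 3240 in IL-4–treated APs, and mir-500, mir-501, mir-188 and mir-532 were not called. Its arm miR-362-3p was at 2005 and 2020 in control and 5069 and 2366 in IL-4–treated APs, so IL-4 2 lay close to the controls, and without IL-4 1 its fold change was 1.17. mir-221 and mir-222, X-linked neighbours whose products repress the cell cycle inhibitor p27, were at 1.36-fold and 1.25-fold and were not called. As in the Htr2c introns, both IL-4 libraries lay above both controls for mir-221, mir-222, mir-362, mir-188, mir-500 and mir-532. The groups overlapped for mir-501.

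**Figure D3:**
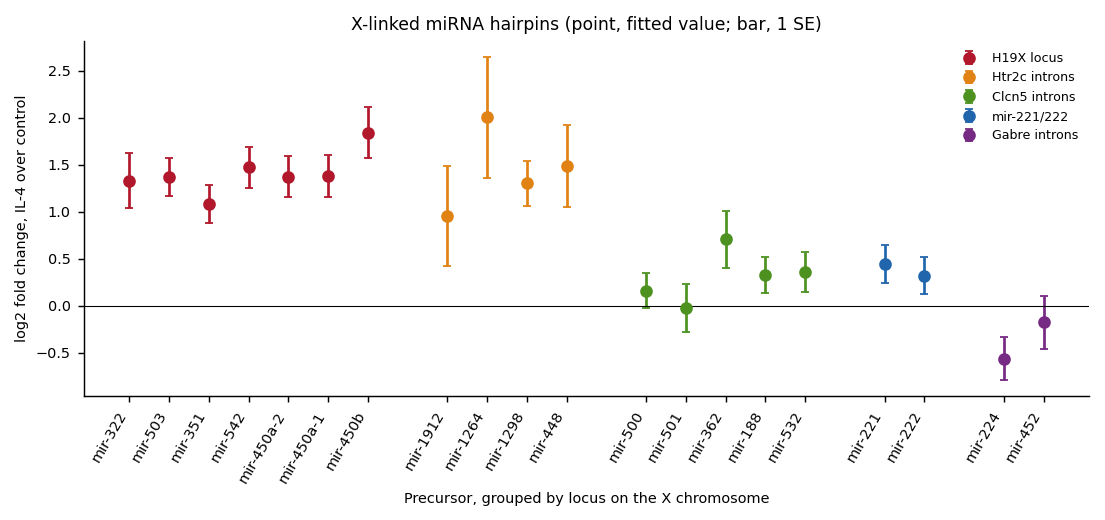
Fitted log2 fold change (IL-4 over control) of X-linked precursors with bars of 1 SE, grouped by locus. The 7 hairpins of the H19X locus lie between 1.08 and 1.84, those in Htr2c introns between 0.95 and 2.00, and those in Clcn5 introns between -0.03 and 0.70.

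Among the autosomal miRNAs, miR-147-3p, known from macrophages after Toll-like receptor stimulation, had the largest fold change of those whose groups were apart and whose mean reached 100 normalized counts. It was at 157.6 and 96.5 in control and 466.7 and 349.5 in IL-4–treated APs (3.23-fold, log2 1.69 ± 0.32 SE, quasi-likelihood test of edgeR, unadjusted p = 0.00112). Its hairpin lies in an exon of AA467197 on chromosome 2, and with each library left out in turn the fold change ranged from 2.63 to 4.26. The haematopoietic markers beside it summed to 22 and 37 reads in control and 32 and 29 in IL-4–treated APs. Of the 14 tested miRNAs of a list on inflammation, it was the only one called, a count near the 6.09% of all tested miRNAs, and the list's median log2 fold change was 0.11. miR-146a-5p, a feedback regulator of NF-κB signalling, was at 102.5 and 118.1 in control and 201.9 and 143.1 in IL-4–treated APs and was not called, although its hairpin mir-146a was. miR-155-5p was at 3778 and 2941 in control and 4118 and 3956 in IL-4–treated APs.

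Of 45 tested miRNAs linked to adipogenesis and thermogenesis, 2 were higher and 0 lower, a share near the 4.53% higher among all tested miRNAs, with a median log2 fold change of -0.02. miR-455-5p, which promotes brown adipocyte formation, was at 910.9 and 935.4 in control and 2052 and 1537 in IL-4–treated APs (1.94-fold, log2 0.96 ± 0.23 SE, quasi-likelihood test of edgeR, unadjusted p = 0.00422), with both IL-4 libraries above both controls. Its other arm, miR-455-3p, was at 666.2 and 687.0 in control and 998.6 and 817.3 in IL-4–treated APs and was not called. miR-196b-3p was at 97.4 and 74.0 in control and 198.7 and 133.2 in IL-4–treated APs (1.94-fold), and it is the minor arm of a hairpin whose major arm did not pass the test. Its call was lost without control 2 (1.72-fold) or IL-4 1 (1.55-fold). miR-143-3p, which promotes adipocyte differentiation, was at 3142781 and 4809337 in control and 3141391 and 4267511 in IL-4–treated APs and was not called.

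Calls were also made for 7 further miRNAs of at least 100 normalized counts. miR-222-5p was at 367.7 and 384.3 in control and 554.3 and 656.1 in IL-4–treated APs. miR-138-5p, made from hairpins on chromosomes 8 and 9, was at 105.1 and 113.4 in control and 162.3 and 210.5 in IL-4–treated APs. miR-16-1-3p, miR-708-3p, miR-690 and miR-1933-3p were higher by 1.53-fold, 1.54-fold, 1.71-fold and 1.96-fold, each with both IL-4 libraries above both controls. All 6 lost their call without 1 library or another: miR-222-5p without control 1 (1.60-fold) or IL-4 2 (1.45-fold), miR-138-5p without control 1 (1.67-fold) or IL-4 2 (1.46-fold), miR-16-1-3p without control 1 (1.38-fold) or IL-4 1 (1.31-fold), miR-708-3p without control 1 (1.47-fold) or IL-4 1 (1.40-fold), miR-690 without control 1 (1.43-fold) or IL-4 2 (1.44-fold) and miR-1933-3p without control 1 (1.76-fold) or IL-4 2 (1.72-fold). miR-219a-5p had the largest fitted value of all (4.87-fold), but it was at 211.4 and 182.8 in control and 1756 and 166.9 in IL-4–treated APs, so the groups overlapped, and without IL-4 1 it was 0.842-fold. The 6 higher miRNAs under 100 included miR-216a-5p with 1 and 5 reads in control and 10 and 20 in IL-4–treated APs and miR-448-3p from the Htr2c introns. The hairpins mir-216a and mir-217, in introns of Gm40818 on chromosome 11, were both higher, and mir-3618, in an exon of Dgcr8, the partner of Drosha, had 0 and 2 reads in control and 11 and 15 in IL-4–treated APs.

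The 10 lower miRNAs ranged from those with few reads to miR-125a-5p, and their number was 1 with library totals in place of TMM and 18 with upper-quartile scaling. miR-125a-5p was the most abundant, at 249655 and 193673 in control and 112600 and 152345 in IL-4–treated APs (0.598-fold, log2 -0.74 ± 0.24 SE, quasi-likelihood test of edgeR, unadjusted p = 0.0178), with both IL-4 libraries below both controls. Its call was lost without control 1 (0.695-fold) or IL-4 1 (0.683-fold). Its neighbours in the miR-99b/let-7e/miR-125a cluster and that cluster's paralogs were not called: of 16 tested members 1 was lower, beside 1.56% of all tested miRNAs, and the median log2 fold change was -0.22. Both IL-4 libraries lay below both controls for 6 of the 16 (37.5%) and above them for 0, against 16.1% and 18.4% of all tested miRNAs. Other lists departed from these shares too. Of 14 tested miRNAs on inflammation, 6 lay above both controls (42.9%) and 3 below (21.4%). Of 45 on adipogenesis and thermogenesis, 14 lay above (31.1%) and 10 below (22.2%). Of 6 of miR-199 and miR-214, 2 lay below (33.3%) and 0 above. None of these differences was tested, and miRNAs of one cluster are not independent of each other. miR-125b-5p was at 336641 and 224970 in control and 226102 and 182338 in IL-4–treated APs, where the groups overlapped.

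miR-31-5p was at 9117 and 9913 in control and 5940 and 6362 in IL-4–treated APs (0.646-fold, log2 -0.63 ± 0.20 SE, quasi-likelihood test of edgeR, unadjusted p = 0.0162). miR-92b-3p was at 5320 and 6694 in control and 2139 and 4402 in IL-4–treated APs (0.545-fold), and its 2 IL-4 libraries differed from each other by more than the controls did. Its fold change was 0.351-fold without IL-4 2, and its call was lost without control 2 (0.631-fold) or IL-4 1 (0.727-fold). The call of miR-31-5p was lost without control 2 (0.688-fold), IL-4 1 (0.663-fold) or IL-4 2 (0.616-fold). miR-224-5p, from an intron of the GABA receptor gene Gabre on the X chromosome, was at 2860 and 1914 in control and 1510 and 1575 in IL-4–treated APs (0.647-fold), while its whole hairpin stayed within the 1.5-fold threshold. miR-218-1-3p and miR-667-3p, the latter from the imprinted Dlk1-Dio3 locus, were at 0.648-fold and 0.652-fold. The call was lost for miR-224-5p without control 1 (0.816-fold), IL-4 1 (0.656-fold) or IL-4 2 (0.626-fold), for miR-218-1-3p without control 1 (0.724-fold) or IL-4 1 (0.730-fold) and for miR-667-3p without control 1 (0.689-fold), control 2 (0.641-fold) or IL-4 1 (0.743-fold).

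The 4 lower miRNAs under 100 were both arms of mir-1247, miR-466g and miR-669f-5p. miR-1247-5p had 28 and 47 reads in control and 10 and 27 in IL-4–treated APs and miR-1247-3p 8 and 17 reads in control and 2 and 7 in IL-4–treated APs. Of the 87 tested miRNAs of the Dlk1-Dio3 locus, 1 was lower and 0 were higher, and of the 42 tested repeat miRNAs of Sfmbt2, 2 were lower, beside 4.53% higher and 1.56% lower among all tested miRNAs.

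None of the 10 most abundant mature miRNAs was called with TMM scaling, and miR-26a-5p and miR-148a-3p, at 0.735-fold and 0.723-fold, lay furthest from 1 among them. miR-10a-5p was at 6321957 and 3814545 in control and 5922789 and 3026204 in IL-4–treated APs, so the libraries numbered 1 were the high ones in both groups. miR-21a-5p, a growth-associated miRNA of many cell types, was at 4308168 and 4058417 in control and 4740474 and 3418376 in IL-4–treated APs. miR-22-3p was at 1519286 and 1504277 in control and 1426522 and 1384923 in IL-4–treated APs, and none of these 3 passed the test. miR-148a-3p was at 971298 and 1270920 in control and 817008 and 805106 in IL-4–treated APs. miR-26a-5p was at 867822 and 913244 in control and 596062 and 712371 in IL-4–treated APs. With upper-quartile scaling both were called lower (miR-148a-3p 0.645-fold, miR-26a-5p 0.663-fold), as was miR-148a-3p without control 1 (0.646-fold). For miR-143-3p, given above, miR-191-5p, miR-127-3p, and miR-199a-3p and miR-199b-3p, which have the same reads, the fold changes were 0.932-fold, 0.914-fold, 1.06-fold and 1.01-fold. With 6.09% of all tested miRNAs called, lists of this size would hold few calls or none, and their counts say nothing particular about the families. Of the lists, 0 of 22 let-7 and miR-98 members, 0 of 18 members of miR-17-92 and its paralogs, 0 of 11 of miR-23/24/27, 0 of 7 of miR-29, 0 of 11 of miR-30, 0 of 8 of miR-34 and miR-449, and 0 of 6 of miR-199 and miR-214 were called. In addition, 0 of 5 tested miRNAs of IL-4-polarised macrophages and 0 of 8 of imprinted genes were called, and 1 of 4 of miR-221 and miR-222 was higher. The medians of these lists lay between -0.08 and 0.34, the last of which was that of miR-221 and miR-222.

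When mature counts were summed over each seed, a higher and a lower miRNA fell into the same family. Of 526 seed families tested, 26 were higher (4.94%) and 7 lower (1.33%), and 34 (6.46%) had an unadjusted p under 0.05. After Benjamini-Hochberg adjustment of the edgeR p-values, 5 (0.951%) stayed under 0.05, all of them seeds of H19X miRNAs. They were those of miR-322-3p, miR-351-3p, miR-450b-5p, miR-503-5p and miR-542-3p. None of the 5 has another listed member, so each holds the same reads as in the edgeR test of mature miRNAs. In that test the adjusted p of each was 0.0866. Over all families, the number under an adjusted p of 0.05 was 11 with upper-quartile scaling or DESeq2, 8 with library totals and 13 with no filter. Of the 39 called mature miRNAs, 33 had a family sum called in the same direction and 6 had a family sum that was not called. Those 6 were miR-351-5p, miR-322-5p, miR-125a-5p, miR-92b-3p, miR-362-3p and miR-669f-5p, so that both of the most abundant H19X miRNAs were among them. All 6 share their seed with other listed miRNAs. Of the 33, all but miR-450a-1-3p, miR-450b-3p, miR-455-5p and miR-542-5p were the only listed member of their family. Their family sum was their own count, so its call is no further evidence.

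The seed CCCUGAG is shared by miR-351-5p and the miR-125 miRNAs printed above. Its sum was 688992 and 508816 in control and 530563 and 542872 in IL-4–treated APs (0.896-fold, quasi-likelihood test of edgeR, unadjusted p = 0.484). miR-351-5p held 15.6% and 17.4% of this sum in control and 37.0% and 37.5% in IL-4–treated APs, and miR-125a-5p held 35.9% and 38.2% against 20.9% and 28.4%. The difference between the group means (IL-4 minus control) was 101768 normalized counts for miR-351-5p, -89192 for miR-125a-5p and -76585 for miR-125b-5p, of which the last did not pass the test.

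The seed AGCAGCA summed to 730156 and 475333 in control and 701801 and 619639 in IL-4–treated APs (1.10-fold, quasi-likelihood test of edgeR, unadjusted p = 0.609), with overlapping groups. miR-16-5p made up 83.04% and 84.83% of it in control and 69.9% and 76.4% in IL-4–treated APs, while miR-322-5p held 10.04% and 7.95% against 23.5% and 17.6%. miR-503-5p, whose seed AGCAGCG stands alone, kept its call as a family (3.65-fold). The seed AUUGCAC of miR-92b-3p was carried mainly by miR-25-3p and miR-92a-3p, and its sum was at 0.907-fold. The family sums that were not called do not show that the number of molecules per seed was equal.

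**Figure D4:**
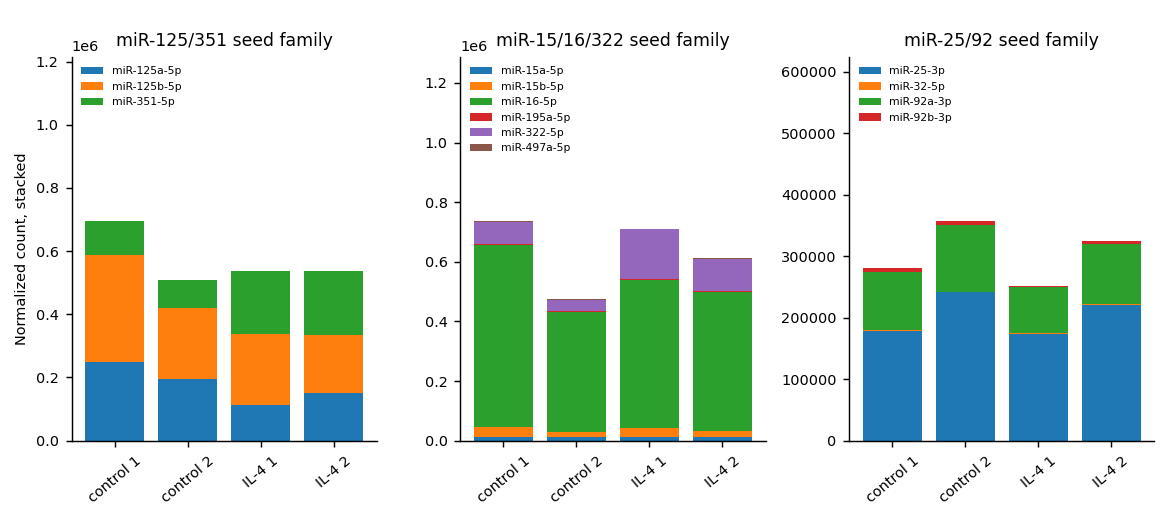
Stacked normalized counts of the members of 3 seed families in each library. miR-351-5p and miR-322-5p take a larger part of their bars with IL-4, and the bars of the groups overlap in height.

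Finally, the ratio of the 5p arm to the 3p arm was compared for 216 precursors, which asks whether IL-4 changed which arm was kept. The larger arm differed between the groups for 4 of them, mir-129-2, mir-212, mir-33 and mir-3061, none of which was called. Their arms were near equal, with mean log2 ratios between -0.35 and 0.25 in both groups. Over the 216 precursors, the median absolute change of the log2 ratio was 0.22. A ratio change beyond 1.5-fold with an unadjusted p under 0.05 was found for 7 precursors (3.24%). After Benjamini-Hochberg adjustment edgeR left 0 of 7 under 0.05, as did limma on the log2 ratio, which had 6 before adjustment. mir-196b had the smallest p, with log2 ratios of 9.102 and 9.133 in control and 7.861 and 8.053 in IL-4–treated APs. Its major arm was still miR-196b-5p, and the 3p arm rose from 76 and 79 reads to 186 and 162. mir-181b-1 had log2 ratios of 6.957 and 6.856 in control and 6.15 and 6.179 in IL-4–treated APs, and mir-351 of 9.894 and 9.824 in control and 9.148 and 9.353 in IL-4–treated APs. The others called were mir-23b, mir-20a, mir-667 and mir-344d-3, and mir-450b, mir-542 and mir-455 followed by p without being called.

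Where both arms of a hairpin were tested as mature miRNAs, their calls were compared. In 6 hairpins both arms were higher, in 1 both were lower, in 10 one arm was called and the other was not, and in 0 the arms were called in opposite directions. Neither arm was called in the remaining pairs. The 6 were mir-322, mir-351, mir-450b, mir-503 and mir-542 of the H19X locus and mir-1298. Over all tested pairs, called or not, both arms had the same sign of log2 fold change in 109 and not in the rest. The median absolute difference in log2 fold change between the arms was 0.25. The called pairs therefore do not show that the arms of a hairpin changed together in general.

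**Figure D5:**
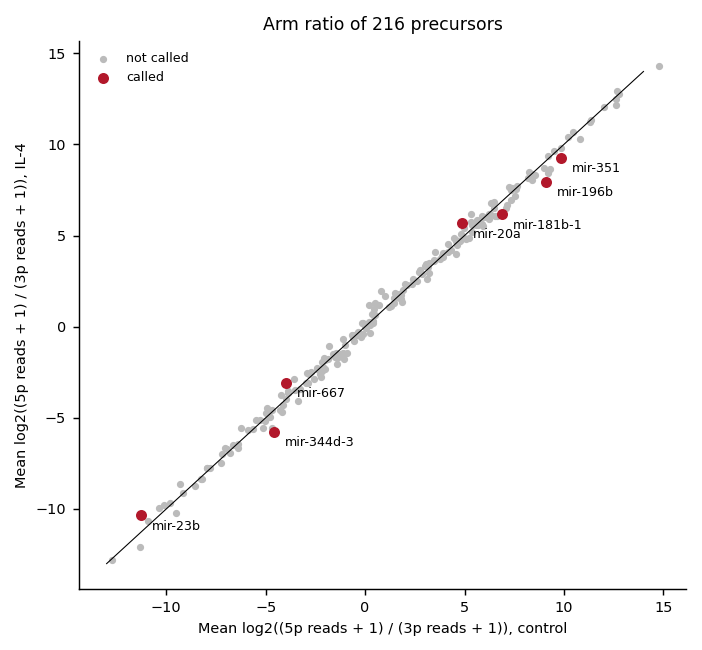
Mean log2 ratio of 5p to 3p reads (1 read added to each) in control (x axis) and IL-4 libraries (y axis) for 216 precursors, with the line of equality. Nearly all points lie along the line, and the 7 called precursors are labelled.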

How the data were processed

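RNA of 4 cultures was made into libraries with the TruSeq Small RNA kit and sequenced on an Illumina HiSeq instrument. The authors removed adapters and low-quality reads, aligned the rest to the genome, to miRBase and to Rfam, and deposited raw read counts per precursor and per arm from the miRDeep2 Quantifier, which counts a read at each precursor it matches. The deposited arm counts are joined in one cell where a precursor lists several products. Where several precursors listed a mature miRNA, the largest count was used, and miRNAs of near-identical sequence can share reads. Low counts were removed by filterByExpr (at least 10, in total at least 15), and the rest were scaled with TMM and compared with the quasi-likelihood test of edgeR 4.0.16 in R 4.3.3. A call needs a change of more than 1.5-fold together with an unadjusted p under 0.05, and adjusted p are Benjamini-Hochberg. Seed families are sums over miRNAs with the same bases 2 to 8, with identical sequences counted once. The arm test used precursors with a mean of at least 100 reads in both arms together and 10 in the minor arm, with a term for each library. Positions and host genes are from RefSeq on GRCm38.p6, on which 751 of 892 precursors were placed, and 1257 of 1486 mature miRNAs were matched by name.

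Named are all called mature miRNAs with a mean of at least 100 normalized counts, the 10 most abundant, called families, the 10 precursors with the smallest p in the arm test, and, from fixed lists, members of at least 1000 normalized counts, mostly as counts and medians. The members, lists and tests were chosen with earlier results of these data known. Alternatives were DESeq2 1.42.0, limma 3.58.1 on quantile-normalized log2(count + 1), upper-quartile scaling, library totals, no filter, sums over precursors, a replicate block, other thresholds and each library left out. The tests were checked on simulated data. Replicates differed by far more than counting noise, which does not show whether the spread between them is biological or technical. The mRNA libraries were not used here.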

Additional observations from a re-analysis of the deposited data

How the results depend on the processing

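Of the 29 called mature miRNAs with a mean of at least 100, 13 kept their call under every alternative fit, namely the 10 such miRNAs of the H19X locus other than miR-542-5p, with miR-147-3p, miR-1298-5p and miR-455-5p. The one reversed value was miR-219a-5p, at 0.842-fold without IL-4 replicate 1 and 8.80-fold without IL-4 replicate 2. For mature miRNAs, no filter gave 49 higher, the adjusted p gave 0 higher and 0 lower, a fold beyond 2 gave 18 and 4, upper-quartile scaling gave 18 lower and library totals 1 lower. Upper-quartile scaling moved the median log2 fold change of all miRNAs to -0.17, and 53.8% of its calls were higher, against 74.4% with TMM and 97.0% with library totals. For precursors, the adjusted p gave 8 higher and 0 lower, library totals 2 lower, no filter 13 lower and a fold beyond 2 gave 4 lower. For seed families, no filter gave 44 higher, the adjusted p 5 higher and 0 lower, a fold beyond 2 gave 16 higher and 3 lower, upper-quartile scaling 3 lower and library totals 0 lower. For arm ratios, a minor arm of at least 50 reads gave 4 and the adjusted p 0. With each library left out in turn, the counts were 26 to 33 higher and 8 to 12 lower for mature miRNAs, 23 to 36 and 7 to 14 for precursors, 24 to 27 and 6 to 12 for seed families, and 3 to 8 for arm ratios. The 36 higher precursors came without control replicate 1, the 14 lower without control replicate 2, and the 12 lower families without control replicate 2 or IL-4 replicate 2. The causes of these shifts were not tested. Counts at the adjusted p under the other fits were chosen after seeing the data, and for mature miRNAs they were 12 with DESeq2, 16 with no filter, 6 with library totals, and 0 with upper-quartile scaling, limma or sums over precursors, all of them higher.

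The labels number the libraries 1 and 2 in both groups without saying that a number marks a shared batch. Deviations of same-numbered libraries from their group means correlated across the 640 miRNAs (r = 0.44, and r = 0.75 over the 230 with a mean of at least 1000 normalized counts; miRNAs are not independent replicates). With a replicate block, 36 mature miRNAs were higher and 14 lower, 25 higher and 6 lower ones passed the adjusted p, as did 21 higher and 5 lower seed families and 10 higher and 2 lower precursors, and the block gave 11 lower seed families and 12 arm ratios. With 2 libraries per group, differences below the spread of single cultures could not be resolved, and miRNAs of few reads carry counting error on top of it.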
